A study of Mus musculus with 9 samples.

Results

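The comparison described here is that of Neuro2a cells treated with 1 mM xyloside (HCX) against Neuro2a cells given the DMSO vehicle. Its members are the 3 HCX and the 3 DMSO libraries, 6 of the 9 libraries of the series, and it covers the 13179 of 24972 gene names whose value reached 10 in at least 3 of the 9 libraries. Neuro2a is a mouse neuroblastoma cell line of wild-type genotype, grown in DMEM with 10% fetal bovine serum and antibiotics, and all libraries were made from total RNA with a stranded mRNA kit. The xyloside was 4-methylumbelliferyl-β-D-xylopyranoside, and the labels give 48 h between its addition and harvest, while a figure legend of the study gives a longer time. The other 3 libraries came from cells given 500 nM of the same compound (LCX). They entered the fit so that all groups shared an estimate of the spread. The study asked whether xyloside changed RNA levels in cells whose glycosaminoglycans it alters. The labels number the libraries 1 to 3 in each group without saying that they came from separate cultures, so p-values measure the spread between these samples, which may be technical.

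Glycosaminoglycans are long sulfated sugar chains that are built in the Golgi on serines of proteoglycan core proteins. The chain starts with a xylose, to which galactoses and a glucuronic acid are added before chondroitin sulfate or heparan sulfate is polymerised. A β-D-xyloside carries its own xylose on a small hydrophobic group, enters the cell and primes free chains that are secreted, and so competes with the core proteins for the same enzymes. Proteoglycans bind growth factors, guidance cues and matrix proteins at the surface of neurons and neuroblasts.

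Values are the deposited normalized counts after a further rescaling that put the 9 libraries on a common scale, and they are called counts below. A difference is the log2 fold change of HCX minus DMSO on log2(count + 1), given with its standard error (SE), and a gene was called when its adjusted p was under 0.05 over all genes tested. Before the rescaling the libraries summed to 34949800 to 36667100, and 12832 to 13040 genes reached 10 in each. The DMSO libraries stood on a scale 2.93% above that of the other 6, and the reads behind the normalized values are not known. Log2 values of replicates correlated at 0.985 to 0.987 within HCX and at 0.983 to 0.988 within DMSO. The first principal component, 23.8% of the variance, placed the HCX libraries at 19.2 to 30.3 and all other libraries at -15.8 to -9.62. Of 10 neuroblast markers 9 passed the filter. Of these 9 markers 3 were called higher and 6 were not called. Summed counts of the markers were 56987 to 59033 in HCX and 46868 to 47732 in DMSO libraries. Most of that difference came from Chgb, with means of 16703 and 11965, and Hand2, with means of 14200 and 9600. Xylt1, which encodes a xylosyltransferase that starts chains, was listed at 0 in all libraries.

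In total 1117 genes were higher and 1129 were lower in HCX than in DMSO libraries, 8.48% and 8.57% of the 13179 tested, or 17% in either direction. The split between directions depended on the scaling. It was 755 higher and 1781 lower on the deposited scale, and 1307 higher and 966 lower when libraries were scaled to the same total. The median difference over all genes was 0.0008, against -0.04 on the deposited scale. A difference of at least 2-fold was called for 17 higher and 76 lower genes, 0.129% and 0.577% of those tested. Leaving out HCX library 1 or HCX library 3 lowered the 17 to 11. For 31.6% of all genes the 3 HCX values lay entirely above or below the 3 DMSO values. In bulk libraries fewer cells of a type and less RNA per cell cannot be told apart.

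Most of the called genes were moderately or highly expressed and changed by less than 2-fold. Among the 2181 genes with a mean count under 100 over the 9 libraries, 31 were called higher and 80 lower, and 71 of these passed 2-fold (16 higher and 55 lower). Of the 3963 genes at 100 to 1000, 338 were higher and 323 lower, with 1 and 14 at 2-fold. The 6479 genes at 1000 to 10000 held 717 higher and 619 lower, of which 0 and 7 passed 2-fold. In the 556 genes at 10000 and above 31 were higher and 107 lower, and 0 of either passed 2-fold. The median size of a called log2 change was 1.12, 0.41, 0.23 and 0.18 from the lowest to the highest of these bands, beside median SEs over all genes of the band of 0.39, 0.11, 0.06 and 0.05. A smaller change could thus be called in the upper bands. There, the 95% interval of the difference lay within 2-fold either way for 97.5% of genes at 100 to 1000, 99.8% at 1000 to 10000 and 100% at 10000 and above, against 34.8% under 100. The excess of lower over higher genes at 10000 and above was present under each scaling tried, from 92 lower against 39 higher to 188 against 23, whereas at 1000 to 10000 the direction of the excess turned round on the deposited scale, with 464 higher and 1060 lower. Single libraries moved some of these counts. Under 100 counts the 31 higher genes became 12 without HCX library 1, 18 without HCX library 3 and 19 without DMSO library 1, and the 80 lower genes became 51 without DMSO library 1 and 47 without DMSO library 2. At 100 to 1000 the 338 higher genes became 222 without HCX library 3 and 214 without DMSO library 1. Because a count grows with transcript length, the bands mix level and length.

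**Figure D1:**
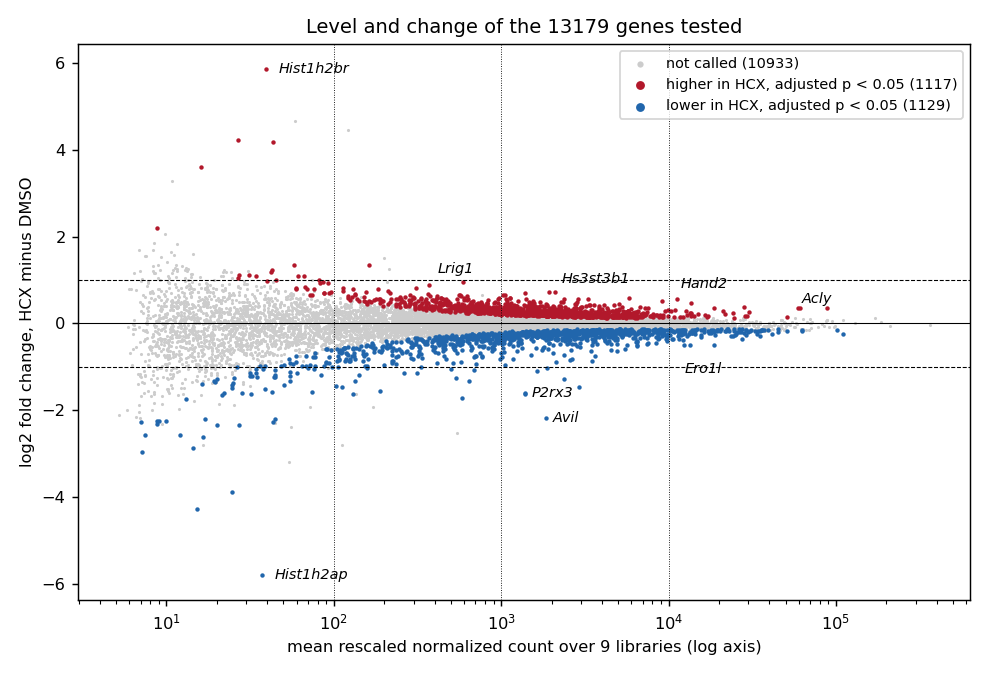
Mean count over the 9 libraries (x axis, log scale) against the log2 fold change of HCX minus DMSO (y axis) for the 13179 genes tested, with genes called higher in red, lower in blue and the rest in grey. Dotted lines mark the bands at 100, 1000 and 10000, and dashed lines mark 2-fold; the called genes above 10000 stay within 2-fold.

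Genes were chosen for description in each band by the smallest adjusted p among called genes whose groups did not overlap, so that the absence of overlap among them was fixed by the choice. At the highest counts the genes that rose were led by Chgb, a granin that helps to form dense-core secretory granules, and by Hand2, a transcription factor of the sympathetic lineage. Chgb had 16974, 16313 and 16822 counts in HCX libraries, against 11984, 11904 and 12007 in DMSO libraries (log2 fold change 0.48 ± 0.04 SE, adjusted p = 1.46e-07). Hand2 had 14118, 13548 and 14936 in HCX libraries, against 9446, 9090.3 and 10263 in DMSO libraries (log2 fold change 0.57 ± 0.05 SE, adjusted p = 2.41e-07). Chgb lies at chr2:132781278-132795079, plus strand, and Hand2 at chr8:57320983-57324633, plus strand, in the mouse assembly GRCm38. Acly, the ATP citrate lyase that supplies cytosolic acetyl-CoA for lipid synthesis, rose 1.29-fold, with 68126, 68569 and 72781 in HCX against 55833, 52403 and 54184 in DMSO libraries (adjusted p = 1.62e-05). Irs2, a docking protein of the insulin receptor, rose 1.28-fold, with 20976, 20928 and 23597 in HCX against 17376, 17068 and 16575 in DMSO libraries (adjusted p = 5.11e-05).

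Hs3st3b1, which encodes a heparan sulfate 3-O-sulfotransferase, led the higher genes at 1000 to 10000 together with Sh2b3, Chga and Mknk2. It had 2804, 2866 and 2861 counts in HCX libraries, against 1878, 1697 and 1631 in DMSO libraries (log2 fold change 0.71 ± 0.06 SE, adjusted p = 6.62e-08), a 1.64-fold difference. The gene lies at chr11:63885792-63922290, minus strand of GRCm38. Sh2b3, an adaptor that restrains cytokine receptor signalling, had 7316, 7606 and 7393 in HCX and 4936, 5157 and 4787 in DMSO libraries (log2 fold change 0.59 ± 0.04 SE, adjusted p = 4.94e-08). Mknk2, a kinase that phosphorylates the translation factor eIF4E downstream of MAP kinases, had 3772, 3341 and 3617 in HCX and 2337, 2572 and 2384 in DMSO libraries (log2 fold change 0.56 ± 0.05 SE, adjusted p = 1.13e-06). At 100 to 1000 counts the receptor inhibitor Lrig1 rose 1.93-fold and the ETS factor Etv1 rose 1.55-fold. Asl, the argininosuccinate lyase of arginine synthesis, had 1224, 1166 and 1384 in HCX and 793, 867 and 866 in DMSO libraries (log2 fold change 0.58 ± 0.07 SE, adjusted p = 2.76e-05). Zfp963, which encodes a zinc finger protein and shares 41.6% of its 31-base stretches with other genes, rose 1.75-fold (log2 fold change 0.81 ± 0.11 SE, adjusted p = 6.12e-05).

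Of the 107 lower genes at the highest counts, Neo1, Ero1l, Aldh1l2 and Mars had the smallest adjusted p. Neo1, the neogenin receptor of netrins and repulsive guidance molecules, fell to 10441, 10978 and 10373 in HCX libraries, against 14930.0, 14812 and 14851 in DMSO libraries (log2 fold change -0.49 ± 0.04 SE, adjusted p = 1.49e-07). Ero1l, the oxidase that recharges protein disulfide isomerase in the endoplasmic reticulum, fell to 10157, 10054 and 9269 in HCX, against 14048, 14062 and 13487 in DMSO libraries (log2 fold change -0.50 ± 0.04 SE, adjusted p = 2.41e-07). Both fell to 0.71-fold. Aldh1l2, a mitochondrial formyltetrahydrofolate dehydrogenase, fell to 0.71-fold, and Mars, the methionyl-tRNA synthetase, fell to 0.78-fold; both belong to the amino acid genes described below.

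At 1000 to 10000 counts the fall was deeper. Avil, which encodes advillin, an actin-binding protein known from sensory neurons, had 533, 681 and 447 counts in HCX libraries, against 2380.0, 3071 and 2012 in DMSO libraries (log2 fold change -2.16 ± 0.13 SE, adjusted p = 1.52e-09). It lies at chr10:127000709-127020994, plus strand, in GRCm38. P2rx3, the ATP-gated P2X3 channel of sensory neurons, had 611, 615 and 559 in HCX, against 1712, 1929.7 and 1884 in DMSO libraries (log2 fold change -1.63 ± 0.07 SE, adjusted p = 5.31e-12). Mamdc2, a secreted protein with MAM domains, had 630.1, 655 and 477 in HCX, against 1790.0, 1846 and 1703 in DMSO libraries (log2 fold change -1.61 ± 0.09 SE, adjusted p = 6.36e-10). The libraries differed among themselves, since HCX library 3 was lowest of the HCX libraries for all 3 genes, and the groups were nevertheless separated by more than the range within either. Fetub, the secreted protease inhibitor fetuin-B, had 979, 939 and 917 in HCX and 1883, 2045 and 2125 in DMSO libraries (log2 fold change -1.09 ± 0.06 SE, adjusted p = 7.96e-10).

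Prkg2, Masp1, Lgi1 and Col18a1 had the smallest adjusted p among the 323 lower genes at 100 to 1000 counts. Prkg2, a cGMP-dependent protein kinase, had 331, 376 and 275 counts in HCX libraries, against 889.9, 822 and 754 in DMSO libraries (log2 fold change -1.33 ± 0.10 SE, adjusted p = 5.20e-08). Masp1, a protease of the lectin pathway of complement, had 415, 386 and 370.2 in HCX and 875, 825 and 781 in DMSO libraries (log2 fold change -1.08 ± 0.08 SE, adjusted p = 4.65e-08). Lgi1, a secreted synaptic protein, had 198, 188 and 199.9 in HCX and 386, 389.7 and 393 in DMSO libraries (log2 fold change -0.99 ± 0.10 SE, adjusted p = 2.64e-06). For these genes each HCX value was near or below 0.5 of the DMSO mean. Col18a1, also in this band, is given with the proteoglycans.

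**Figure D2:**
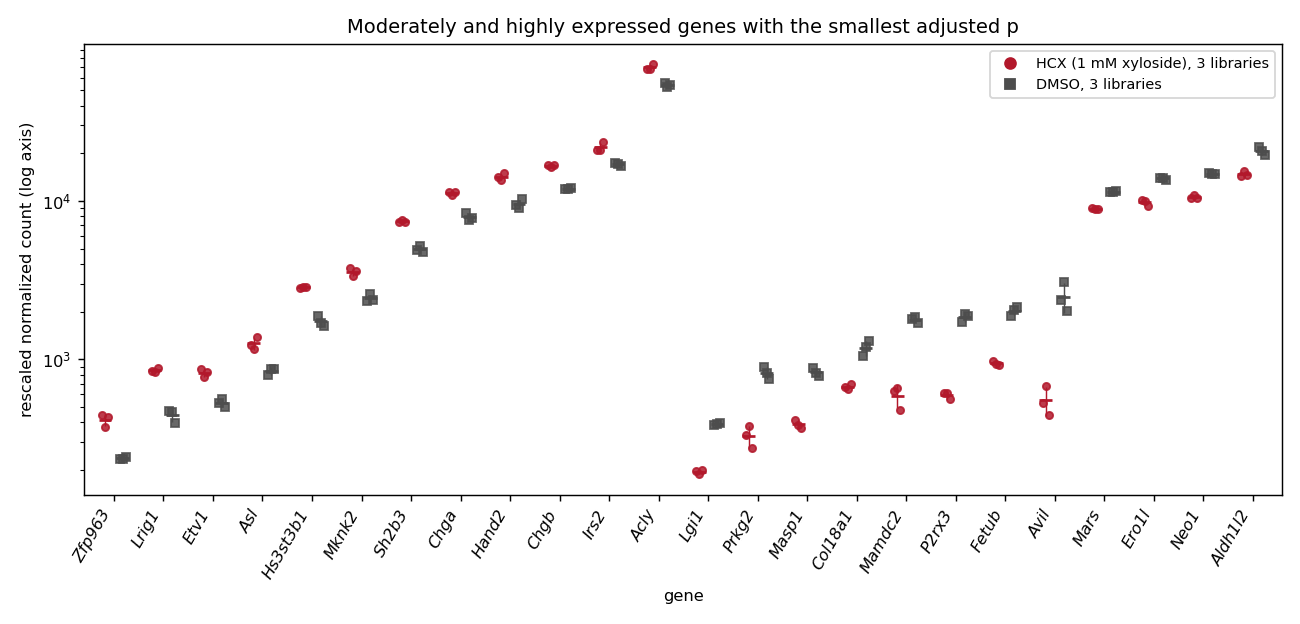
Counts (y axis, log scale) of the 24 moderately and highly expressed genes named by their adjusted p, ordered by level among the higher genes on the left and the lower genes on the right. Circles are the 3 HCX libraries and squares the 3 DMSO libraries, with mean and SD; genes were chosen among those without overlap, and Avil stood at 447 to 681 in HCX against 2012 to 3071 in DMSO.

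Under 100 counts single libraries weighed more. Grb10, an imprinted adaptor that restrains insulin receptor signalling, had 16.2, 11.6 and 13 counts in HCX and 71.6, 52.6 and 74.7 in DMSO libraries (log2 fold change -2.20 ± 0.31 SE, adjusted p = 6.68e-05). Ppy, the precursor of pancreatic polypeptide, had 7.35, 16.4 and 10.6 in HCX and 43.4, 70.2 and 59.5 in DMSO libraries (log2 fold change -2.28 ± 0.34 SE, adjusted p = 0.000121). The zinc finger gene Zfp69 had 131, 122 and 112 in HCX and 75.7, 64.3 and 51.8 in DMSO libraries, and Prss16, a thymic serine protease, had 149, 90.3 and 119.8 in HCX and 65.9, 47.3 and 62.5 in DMSO libraries. Some histone genes had large estimates. Hist1h2ap was listed at 0 in all HCX libraries and had 45.4, 61.9 and 56.3 in DMSO libraries, while Hist1h2br had 79.7, 87 and 81.9 in HCX and 2.07, 0 and 0 in DMSO libraries. Hist1h2ao had 56.2, 36.3 and 34.2 in HCX and 9.65, 0 and 2.89 in DMSO libraries. These 3 genes share 93.4%, 89.5% and 93.8% of their 31-base stretches with other genes, so reads could have been split among near-identical copies and their values are uncertain. In the LCX libraries Hist1h2br was at 2.70, 24.1 and 75.6, so that replicates given 1 dose spanned most of the difference between HCX and DMSO.

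The enzymes that handle xylose and build the chains showed small differences. For xylose attachment, the linkage region and the supply of sugar and sulfate, 15 of 16 genes passed the filter, of which 1 was higher, 1 lower and 13 not called, with a median difference of -0.05. The called share was 13.3%, beside 17% of all genes. B3galt6, which adds a galactose of the linkage region, had 293, 299.9 and 291 counts in HCX and 199.8, 237 and 239 in DMSO libraries (log2 fold change 0.39 ± 0.12 SE, adjusted p = 0.0324). Papss2, an enzyme that makes the sulfate donor, had 289, 256 and 252 in HCX and 352, 356 and 312 in DMSO libraries (log2 fold change -0.35 ± 0.12 SE, adjusted p = 0.044). The calls of B3galt6 and Papss2 were lost without single libraries, B3galt6 without DMSO library 1 or any HCX library (adjusted p up to 0.138) and Papss2 without DMSO library 1 or 2, HCX library 2 or 3 or LCX library 1 (up to 0.125). Papss2 was also lost with limma-voom and when libraries were scaled to the same total. The galactosyltransferase B4galt7, which acts on xylose itself, was at 523, 439.9 and 579 in HCX and 532, 572 and 547 in DMSO libraries, a difference of -0.11 (95% interval -0.31 to 0.10) and not called. Xylt2, the xylosyltransferase detected here, differed by 0.14 (95% interval -0.07 to 0.35), the xylose kinase Fam20b by -0.08 (95% interval -0.17 to 0.02), its counterpart phosphatase Pxylp1 by 0.15 (95% interval -0.07 to 0.36) and the glucuronyltransferase B3gat3 by -0.12 (95% interval -0.25 to 0.00). The UDP-xylose synthase Uxs1 differed by -0.09 (95% interval -0.20 to 0.02) and the UDP-glucose dehydrogenase Ugdh by -0.15 (95% interval -0.30 to -0.00), and neither was called. All 15 intervals lay within 2-fold.

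Of the chondroitin and dermatan sulfate enzymes 10 of 16 genes were tested, and 3 were higher, 0 lower and 7 not called, with a median of 0.03. The higher share was 30%, beside 8.48% of all genes. On the deposited scale 1 was higher, the calls of Chsy1 and Chst11 were lost and the median turned to -0.009. Csgalnact2, which starts the chondroitin chain, had 553, 564 and 645 counts in HCX and 469, 410.3 and 499.7 in DMSO libraries (log2 fold change 0.35 ± 0.10 SE, adjusted p = 0.0235). Chsy1, a chondroitin polymerase, had 2013, 2008 and 2084 in HCX and 1914, 1734 and 1775 in DMSO libraries (log2 fold change 0.17 ± 0.06 SE, adjusted p = 0.0447). Chst11, a chondroitin 4-O-sulfotransferase, had 4439, 4174 and 4277 in HCX and 3859, 3662 and 3969 in DMSO libraries (log2 fold change 0.17 ± 0.05 SE, adjusted p = 0.0241). Each rose by less than 1.3-fold, and the calls were not stable. Without DMSO library 2 none of the 3 was called, and over all single leave-outs the count was 0 to 2. Chsy1 was lost without any library other than DMSO library 1, Chst11 without DMSO library 1 or 2 or HCX library 1, and Csgalnact2 without DMSO library 2 or HCX library 3. With HCX library 1 or 3 left out 1 member was called. The polymerising factors Chpf and Chpf2 differed by 0.04 (95% interval -0.06 to 0.15) and -0.01 (95% interval -0.24 to 0.22), and the sulfotransferases Chst12 and Chst14 by 0.02 (95% interval -0.14 to 0.19) and -0.20 (95% interval -0.43 to 0.04). Dse, the epimerase that makes dermatan sulfate, differed by -0.29 (95% interval -0.60 to 0.01). Csgalnact1 and Chst15 had mean counts of 10.8 ± 0.71 and 17.1 ± 7.99 in HCX and 7.20 ± 6.84 and 31.2 ± 4.86 in DMSO libraries (SD, n = 3), and their intervals exceeded 2-fold.

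Among the heparan sulfate enzymes 16 of 24 genes were tested, and 2 were higher, 4 lower and 10 not called, with a median of -0.07. The higher and lower shares were 12.5% and 25%, beside 8.48% and 8.57% of all genes. Hs3st3b1, described above, had the smallest adjusted p of the list and stayed called in every alternative tried, while the related Hs3st6 had 173, 164 and 204 counts in HCX and 109, 126 and 144 in DMSO libraries and an adjusted p of 0.0632. Hs6st1, a 6-O-sulfotransferase, had 9237, 9603 and 9588 in HCX and 8737, 8284 and 8348 in DMSO libraries (log2 fold change 0.16 ± 0.04 SE, adjusted p = 0.00976). The lower members were Ndst1, Glce, Extl1 and Hpse. Ndst1, the N-deacetylase that opens the chain to sulfation, had 1803, 1813 and 2034 in HCX and 2294, 2047 and 2319.8 in DMSO libraries (log2 fold change -0.24 ± 0.06 SE, adjusted p = 0.0121). Glce, the glucuronyl C5-epimerase, had 3846, 3985 and 4096 in HCX and 4511, 4167 and 4853 in DMSO libraries (log2 fold change -0.18 ± 0.05 SE, adjusted p = 0.0268). Their calls and that of the glycosyltransferase Extl1 (-0.16 ± 0.05, adjusted p = 0.0279) were lost without DMSO library 1 or 3 or HCX library 1 or 2, with adjusted p up to 0.0575 for Ndst1, 0.129 for Glce and 0.126 for Extl1. Hpse, the heparanase that cuts the chains, had 141, 184 and 134 in HCX and 215, 304 and 199.7 in DMSO libraries (log2 fold change -0.63 ± 0.16 SE, adjusted p = 0.0115) and was lost only without DMSO library 2 (adjusted p = 0.0663). The 4 lower members became 1 without DMSO library 1 or HCX library 2 and 2 without DMSO library 3 or HCX library 1. The polymerases Ext1 and Ext2 differed by 0.08 (95% interval -0.05 to 0.21) and -0.02 (95% interval -0.14 to 0.09), and the 2-O-sulfotransferase Hs2st1 by -0.10 (95% interval -0.22 to 0.02), with no call. Limma called 0 of 8 tested hyaluronan genes, limma-voom also 0, and 2 were higher and 1 lower at an unadjusted p under 0.05. Hmmr, a hyaluronan receptor, differed by -0.15 (adjusted p = 0.0842).

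**Figure D3:**
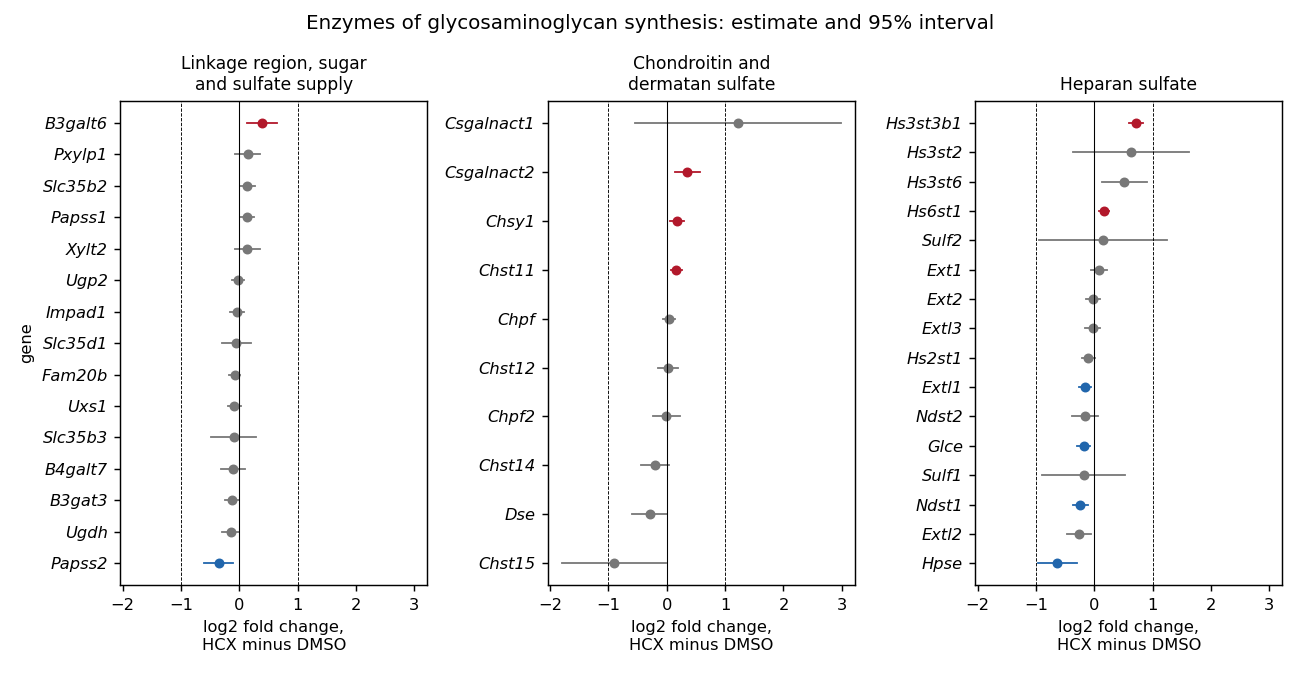
Log2 fold change of HCX minus DMSO (x axis, dot) with its 95% interval (line) for the 41 tested enzymes of the linkage region and supply, of chondroitin and dermatan sulfate and of heparan sulfate. Red and blue mark genes called higher and lower, and dashed lines mark 2-fold; apart from Csgalnact1, Chst15, Hs3st2 and Sulf2, whose counts were low, the intervals lie within 2-fold.

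The called core proteins, which carry the chains, were all lower. Of 27 listed cores 17 were tested, and 0 were higher and 7 lower, with a median of -0.20 beside 0.0008 for all genes. The lower share was 41.2%, beside 8.57% of all genes. Summed over the list the HCX libraries had 23293 to 24529 counts and the DMSO libraries 29153 to 30147. Spock2, a testican of the brain matrix, had 4032, 4271 and 4028 in HCX, against 6376, 5788 and 6244 in DMSO libraries (log2 fold change -0.58 ± 0.05 SE, adjusted p = 1.37e-07). It lies at chr10:60106219-60135198, plus strand of GRCm38. Col18a1, the core of collagen XVIII, had 664, 650.5 and 693 in HCX, against 1050.4, 1188 and 1309.6 in DMSO libraries (log2 fold change -0.82 ± 0.08 SE, adjusted p = 9.89e-07). Hspg2, the basement membrane proteoglycan perlecan, had 2085, 2285 and 2442 in HCX, against 3428, 3318 and 3098 in DMSO libraries (log2 fold change -0.53 ± 0.06 SE, adjusted p = 8.44e-06). For these 3 cores no single library decided the call. Dcn, the collagen-binding proteoglycan decorin, had 321, 383 and 227 in HCX and 563, 525 and 452 in DMSO libraries (log2 fold change -0.75 ± 0.14 SE, adjusted p = 0.00107). Leaving out single libraries gave 6 or 7 lower cores.

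Of 24 tested laminins and matrix glycoproteins 2 were higher and 11 lower, with a median of -0.32. These were 8.33% and 45.8%, beside 8.48% and 8.57% of all genes. Lama4, a laminin chain, had 2058, 2204 and 1892 counts in HCX and 3031, 2829 and 2728 in DMSO libraries (log2 fold change -0.48 ± 0.06 SE, adjusted p = 1.62e-05). Fn1, the fibronectin gene, had 12536, 13504 and 13999 in HCX and 18254, 15374 and 16536 in DMSO libraries (log2 fold change -0.32 ± 0.06 SE, adjusted p = 0.000565). In the other direction, the laminin chain Lamb2 rose 1.38-fold, with 1150.2, 1144 and 1293 in HCX and 985, 787 and 827 in DMSO libraries (adjusted p = 0.000633). Vtn, which encodes vitronectin, had 5.26, 1.02 and 1.94 in HCX and 40.5, 15.1 and 21.1 in DMSO libraries (log2 fold change -2.88 ± 0.59 SE, adjusted p = 0.00228), so a deep relative fall rested on low counts. The 11 lower members became 7 without DMSO library 1 or HCX library 3, and the 2 higher became 1 without DMSO library 2 or 3. Of 25 tested collagen chains 1 was higher and 4 lower, 4% and 16% beside 8.48% and 8.57% of all genes. Among the lower chains were Col22a1 (-0.48 ± 0.08, adjusted p = 0.000491) and Col6a5 (-0.27 ± 0.05, adjusted p = 0.000921). The higher chain, Col7a1, was lost without DMSO library 1, 2 or 3, HCX library 2 or 3 or LCX library 1 (adjusted p up to 0.235).

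Of 25 tested matrix proteases and inhibitors 2 were higher and 5 lower, with a median of -0.20. These were 8% and 20%, beside 8.48% and 8.57% of all genes. Mmp19, a matrix metalloproteinase, had 289.7, 325 and 246 counts in HCX and 529, 697 and 552 in DMSO libraries (log2 fold change -1.04 ± 0.12 SE, adjusted p = 1.08e-05). Mmp9, the gelatinase B gene, had 46.3, 46.8 and 42.7 in HCX and 123, 158 and 101 in DMSO libraries (log2 fold change -1.45 ± 0.20 SE, adjusted p = 5.23e-05). The aggrecanase Adamts4 had 1019, 1133 and 972 in HCX and 1762, 1901 and 1504 in DMSO libraries, and the urokinase receptor Plaur had 1416, 1459.8 and 1246 in HCX and 1963, 2063 and 1995 in DMSO libraries. These 4 genes were chosen by the smallest adjusted p, so that the absence of overlap in them was nearly fixed by the choice. Over the list the groups did not overlap for 12 of 25 genes, 48% beside 31.6% of all genes.

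Integrins, the receptors for matrix proteins, gave 1 higher and 6 lower genes of 18 tested, with a median of -0.22. These were 5.56% and 33.3%, beside 8.48% and 8.57% of all genes. The collagen-binding subunits Itga1 and Itga2 fell to 0.54-fold and 0.60-fold. Itga6, a laminin-binding subunit, had 7779, 8416 and 7925 counts in HCX and 10899.9, 9507 and 10526 in DMSO libraries (log2 fold change -0.36 ± 0.05 SE, adjusted p = 6.19e-05). Itga8, which pairs with the beta 1 subunit and binds nephronectin, rose, with 499.7, 423 and 409.7 in HCX and 319.9, 289 and 328 in DMSO libraries (log2 fold change 0.50 ± 0.11 SE, adjusted p = 0.004). Among 18 tested neural adhesion molecules of the immunoglobulin family and astrotactins 2 were higher and 8 lower, with a median of -0.25. These were 11.1% and 44.4% of the list. Dscaml1, a homophilic adhesion molecule that separates neurites, had 281, 361 and 299 in HCX and 621, 592 and 544 in DMSO libraries (log2 fold change -0.91 ± 0.10 SE, adjusted p = 5.13e-06). Astn2, an astrotactin, had 90.1, 96.9 and 87.3 in HCX and 175, 155 and 219 in DMSO libraries (log2 fold change -0.98 ± 0.17 SE, adjusted p = 0.000642), and Ncam1 and L1cam, which carry neuronal adhesion, fell to 0.78-fold and 0.80-fold.

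The 4 lists that cover amino acid supply held 0 genes called higher by limma, 0 by limma-voom and 0 at an unadjusted p under 0.05. Their members were chosen with earlier results of these data known, so a count of 0 depends on that choice. Asl of arginine synthesis, given above, was in none of the 4 lists and rose 1.49-fold. Cells answer amino acid shortage and other stresses through ATF4, a transcription factor that raises amino acid synthesis, amino acid import and tRNA charging. Of 20 cytosolic aminoacyl-tRNA synthetases, which attach amino acids to tRNAs, 12 were lower and 0 higher, with a median of -0.14. The lower share was 60%, beside 8.57% of all genes. Summed over the list, counts were 311249 to 324923 in HCX and 349866 to 355926 in DMSO libraries. Mars had 9084, 8884 and 8891 in HCX, against 11354, 11445 and 11536 in DMSO libraries (log2 fold change -0.35 ± 0.04 SE, adjusted p = 5.48e-06). Iars, the isoleucyl enzyme, had 13369, 14274 and 13102 in HCX, against 17407, 16037 and 15682 in DMSO libraries (log2 fold change -0.27 ± 0.05 SE, adjusted p = 0.000642). Lars (-0.24) and Rars (-0.22), the leucyl and arginyl enzymes, fell by similar amounts. The 12 lower members became 10 when libraries were scaled to the same total, and 8 to 11 when single libraries were left out.

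Of 15 tested enzymes of serine, glycine, proline and folate metabolism 7 were lower, with a median of -0.12, a count that was 12 on the deposited scale. Of 18 amino acid transporters 6 were lower, with a median of -0.08. The lower shares of these 2 lists were 46.7% and 33.3%, beside 8.57% of all genes. Cth, the cystathionine gamma-lyase that makes cysteine, had 3703, 3843 and 3499.6 counts in HCX and 4978, 4781 and 4807 in DMSO libraries (log2 fold change -0.40 ± 0.05 SE, adjusted p = 1.11e-05). Got1, the cytosolic aspartate aminotransferase, had 7813, 8452 and 7468 in HCX and 9752, 9881 and 9448 in DMSO libraries (log2 fold change -0.29 ± 0.05 SE, adjusted p = 0.000232). Pck2, the mitochondrial phosphoenolpyruvate carboxykinase, fell to 0.86-fold. Slc7a11, the cystine importer, fell to 0.61-fold, and Slc6a9, a glycine transporter, had 2771, 2945 and 2956 in HCX and 3827, 3761 and 3603 in DMSO libraries (log2 fold change -0.37 ± 0.05 SE, adjusted p = 3.11e-05). The cationic amino acid carriers Slc7a3 and Slc7a1 fell to 0.75-fold and 0.88-fold.

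Of 16 tested ATF4 regulators and early targets 4 were lower and 12 not called, with a median of -0.08. The lower share was 25%, beside 8.57% of all genes. Nupr1, a small stress-induced chromatin protein, had 8371, 8726 and 7039.6 counts in HCX and 10354, 10172 and 11077 in DMSO libraries (log2 fold change -0.39 ± 0.06 SE, adjusted p = 0.000244). Stc2, the secreted stanniocalcin 2, and Gdf15, a stress-induced cytokine, fell to 0.81-fold and 0.80-fold. Fgf21, a stress-induced hormone, was at 12.6, 14.3 and 20.3 in HCX and 46.9, 50.2 and 22.2 in DMSO libraries, and its call was lost without DMSO library 1 or 2 or HCX library 1 or 2 (adjusted p up to 0.115). Atf4 itself averaged 57985 in HCX and 57483 in DMSO libraries and was not called, with a difference of 0.01 (adjusted p = 0.877). Of 19 tested glutathione and NRF2 target genes 5 were lower and 0 higher (1 higher at an unadjusted p under 0.05, 0 with limma-voom), with a median of -0.10. The lower share was 26.3% of the list. The 5 became 9 on the deposited scale and 3 without HCX library 3. G6pdx, which makes NADPH in the pentose phosphate pathway, had 3855, 3695 and 3003 in HCX and 4348, 4988 and 4311 in DMSO libraries (log2 fold change -0.38 ± 0.07 SE, adjusted p = 0.0014), and Txnrd1, the cytosolic thioredoxin reductase, had 10693, 11763 and 10875 in HCX and 12821, 12765 and 12321 in DMSO libraries (log2 fold change -0.19 ± 0.04 SE, adjusted p = 0.00643).

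**Figure D4:**
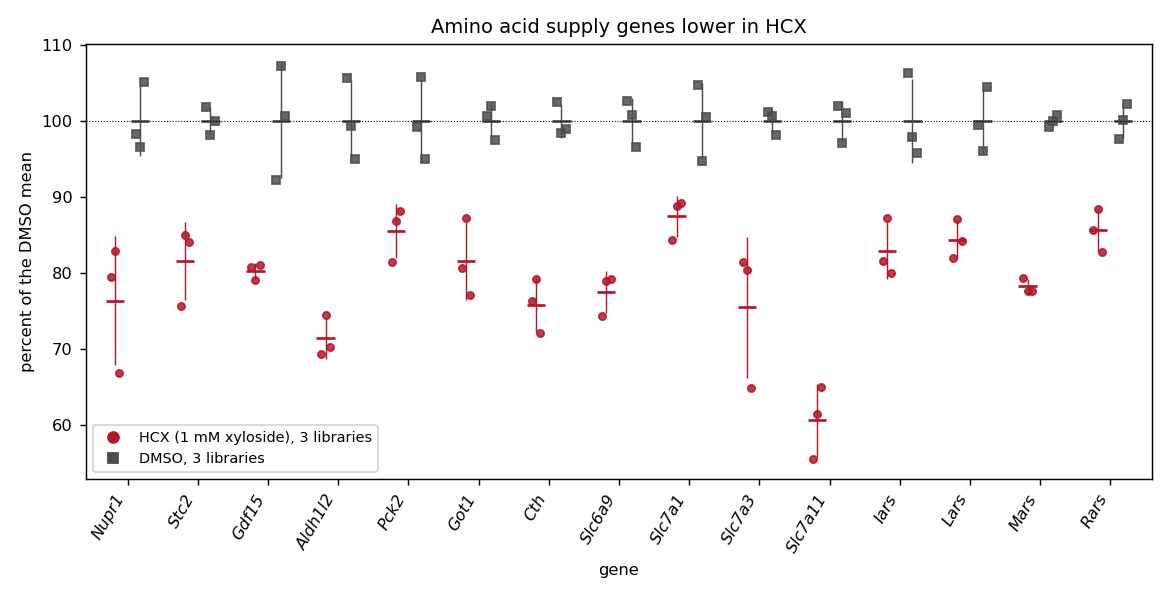
Counts of 15 amino acid supply genes that were lower in HCX, as percent of the gene's DMSO mean (y axis), with HCX libraries as circles and DMSO libraries as squares, and the mean and SD of each group. The genes were chosen among those called lower by the smallest adjusted p, which nearly fixed the separation of the groups. Genes with a mean count under 100, such as Fgf21, were left out. The HCX values of the genes drawn lie below their DMSO values, with Slc7a11 lowest among them at 1533 to 1795 counts in HCX against 2683 to 2818 in DMSO.

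The promoters of the members of these 4 lists, called or not, were searched for the CARE element, which ATF4 binds with a partner protein. It was spelled TGATGNAAN, where N is any base, and searched on both strands from 250 bases before to 50 bases after each gene's start in RefSeq sequences of GRCm38.p6. Of the 69 tested members of the 4 lists 56 had a window, and 17 of these held the element, against 2.797% of all 10476 tested genes with a window. The lists were drawn up around ATF4 targets and amino acid supply, so this excess was built into their choice and does not describe HCX. It was present in 10 of 21 members called lower and in 7 of 35 not called. A match is a description of the letters and not of binding. The stretches around the element are shown for 7 of these 10 members, and not for Fgf21 and 2 others. Elements that did not lie wholly before the start, or that lay on a chromosome left out of the printed stretches, were not kept for printing. They are written on the strand of the gene with the element in capitals, so that an element on the opposite strand stands as its reverse complement.
Nupr1: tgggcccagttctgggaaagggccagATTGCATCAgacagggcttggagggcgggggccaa
Got1: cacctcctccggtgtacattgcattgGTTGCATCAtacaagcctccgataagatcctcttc
Pck2: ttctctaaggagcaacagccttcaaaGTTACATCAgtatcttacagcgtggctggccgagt
Slc7a11: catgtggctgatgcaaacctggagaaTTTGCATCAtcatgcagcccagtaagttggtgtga
Pycr1: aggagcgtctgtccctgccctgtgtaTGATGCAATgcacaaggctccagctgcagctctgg
Tars: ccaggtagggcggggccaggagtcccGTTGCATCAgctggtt
Gars: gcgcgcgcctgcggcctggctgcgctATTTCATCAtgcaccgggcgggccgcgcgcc
The stretch of Nupr1 lies at chr7:126625547-126625607, minus strand. That of Got1 lies at chr19:43524674-43524734, minus strand. That of Pck2 lies at chr14:55540136-55540196, plus strand. That of Slc7a11 lies at chr3:50443627-50443687, minus strand. That of Pycr1 lies at chr11:120643817-120643877, minus strand, that of Tars at chr15:11399659-11399700, minus strand, and that of Gars at chr6:55037944-55038000, plus strand. The element began 111 bases before the start of Nupr1, 103 before Got1, 104 before Pck2, 48 before Slc7a11, 103 before Pycr1, 16 before Tars and 31 before Gars. The stretch of Slc7a11 holds a further copy, in lower case, in the opposite direction. Pycr1 (-0.24), Tars (-0.21) and Gars (-0.15) were named here for their element after their values were seen. The element was also found in members that were not called. They are shown for Asns, the asparagine synthetase, which differed by -0.08 (adjusted p = 0.223), and for Chac1, which degrades glutathione, both also chosen after their values were seen.
Asns: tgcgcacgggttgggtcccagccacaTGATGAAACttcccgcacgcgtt
Chac1: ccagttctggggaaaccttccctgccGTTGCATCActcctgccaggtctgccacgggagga
The stretch of Asns lies at chr6:7693210-7693258, minus strand, and that of Chac1 at chr2:119351022-119351082, plus strand. In the NRF2 target list the antioxidant element TGACNNNGC was found in 6 of 14 windows, against 16.6% of all genes, and in the lysosome list the CLEAR element TCACGTGA was found in 0 of 8 members called lower and 6 of 26 not called, against 2.167% of all genes.

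Of 23 tested genes that ERK signalling induces downstream of growth factors, or that feed back on it as inhibitors, 10 were higher and 1 lower, with a median of 0.11. These were 43.5% and 4.35%, beside 8.48% and 8.57% of all genes. Dusp6, a phosphatase that inactivates ERK, had 11770.0, 11564 and 11507 counts in HCX and 9881, 9497 and 8674 in DMSO libraries (log2 fold change 0.31 ± 0.05 SE, adjusted p = 0.000167). Etv1 had 866, 774 and 835 in HCX and 532, 562 and 496 in DMSO libraries (log2 fold change 0.64 ± 0.09 SE, adjusted p = 3.91e-05). Lrig1 had 845, 836 and 883 in HCX and 468, 464 and 398 in DMSO libraries (log2 fold change 0.95 ± 0.10 SE, adjusted p = 3.40e-06). Phlda1, an early response gene, rose 1.35-fold. Over this list 8 to 11 members were higher when single libraries were left out.

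Of 21 tested BMP and TGF-beta genes 3 were higher and 4 lower, with a median of -0.07. Called shares of this list were 14.29% higher and 19.05% lower, beside 8.48% and 8.57% of all genes. The ligand Tgfb2 had 893, 858 and 906 counts in HCX and 1211, 1107 and 1163 in DMSO libraries (log2 fold change -0.39 ± 0.07 SE, adjusted p = 0.00129), and Tgfb1 fell to 0.77-fold. Smad7, an intracellular inhibitor of the pathway, had 815, 931 and 1033 in HCX and 748, 700.0 and 638 in DMSO libraries (log2 fold change 0.41 ± 0.09 SE, adjusted p = 0.00411), and the decoy receptor Bambi rose 1.32-fold. These 4 genes were the called members with the smallest adjusted p, and the other called members are not shown. Whether ligands and inhibitors differ in direction over the list was not tested. Of 18 tested Wnt genes 3 were higher and 3 lower, 16.7% each way beside 8.48% and 8.57% of all genes. The receptor Fzd3 had 3299.6, 3328 and 3290.4 in HCX and 2835, 2547 and 2904 in DMSO libraries (log2 fold change 0.26 ± 0.05 SE, adjusted p = 0.00227), while the secreted inhibitor Dkk1 had 11002, 10338 and 9570.2 in HCX and 12848, 11296 and 12645 in DMSO libraries (log2 fold change -0.25 ± 0.06 SE, adjusted p = 0.00473). Dkk3, of the same family, rose 1.18-fold, and Sfrp4, a secreted Frizzled-related protein, was at 10.5, 16.4 and 10.7 in HCX and 56.1, 46.2 and 24 in DMSO libraries.

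Neuroblast genes of the noradrenergic type were among the lists with more higher than lower members. Of 21 tested 7 were higher and 2 lower, 33.3% and 9.52% beside 8.48% and 8.57% of all genes, with a median of 0.14. The higher count was 7 in every leave-out while the 2 lower became 0 without DMSO library 1 or 3 and 1 without HCX library 1 or 2. Phox2a, a homeobox factor of noradrenergic neurons, had 6067, 6107 and 6359 counts in HCX and 4912, 4523 and 4778 in DMSO libraries (log2 fold change 0.38 ± 0.05 SE, adjusted p = 5.48e-05). Chrna3, a nicotinic receptor subunit of sympathetic ganglia, had 4369, 3747 and 3981 in HCX and 3223, 2939 and 2904 in DMSO libraries (log2 fold change 0.41 ± 0.06 SE, adjusted p = 7.09e-05). Sox4, a factor of immature neurons, had 12052, 12087 and 13664 in HCX and 10981, 9694 and 9741 in DMSO libraries (log2 fold change 0.31 ± 0.06 SE, adjusted p = 0.00114). Hand2, given above, belongs to the same list. Markers of other cell types were low. Of 10 glia and Schwann cell markers 3 were tested and none was called (0 also with limma-voom and 0 at an unadjusted p under 0.05), with sums of 730 to 819 in HCX and 712 to 815 in DMSO libraries, and Foxd3, Olig1 and Pmp2 were at 0 throughout. Of 10 mesenchymal markers 6 were tested and Dcn was lower, with sums of 2615 to 3470 in HCX and 3437 to 3705 in DMSO libraries, and Col3a1 and Twist1 were at 0. Of 8 epithelial markers 2 were tested and Krt8 was lower, with sums of 177 to 211 in HCX and 281 to 339 in DMSO libraries. Of 10 immune and endothelial markers 4 were tested and none was called (0 also with limma-voom, 2 lower at an unadjusted p under 0.05), with sums of 188 to 244 in HCX and 272 to 307 in DMSO libraries. The part of these markers in the matrix and acute phase results was not tested.

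The secretory granule list split. Of 14 tested granins and prohormone genes 4 were higher and 5 lower, 28.6% and 35.7% beside 8.48% and 8.57% of all genes. Among those at 10 or more in every library 3 were lower. Chga, the chromogranin A gene, had 11334, 10943 and 11446 counts in HCX and 8340.0, 7573 and 7855 in DMSO libraries (log2 fold change 0.51 ± 0.05 SE, adjusted p = 5.03e-07), and rose with Chgb. Scg2, which encodes secretogranin II of the same granules, had 5268, 5610.3 and 4518 in HCX and 7352, 7559 and 6733 in DMSO libraries (log2 fold change -0.50 ± 0.06 SE, adjusted p = 1.95e-05). Members of 1 protein family thus went in opposite directions. Of 27 tested synaptic vesicle and exocytosis genes 5 were higher and 3 lower, 18.5% and 11.1% beside 8.48% and 8.57% of all genes. The lower count was 6 on the deposited scale, without DMSO library 2 or without HCX library 3. Rab3a, a GTPase of synaptic vesicles, had 1184, 907 and 1028 in HCX and 737, 745 and 656 in DMSO libraries (log2 fold change 0.54 ± 0.09 SE, adjusted p = 0.000351), while its relative Rab3c had 5192, 5172 and 5282 in HCX and 6373, 5919 and 6214 in DMSO libraries (log2 fold change -0.24 ± 0.04 SE, adjusted p = 0.000746). Cplx2, a complexin that regulates SNARE-driven fusion, had 1463, 1419 and 1639 in HCX and 2467, 2246 and 2525 in DMSO libraries (log2 fold change -0.68 ± 0.07 SE, adjusted p = 8.52e-07), and the active zone scaffold Bsn rose 1.31-fold.

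Voltage-gated channels gave 1 higher and 8 lower genes of 36 tested, 2.78% and 22.2% beside 8.48% and 8.57% of all genes, with a median of -0.11. The 8 became 5 without DMSO library 1 or HCX library 3. Cacna1i, a T-type calcium channel subunit, had 549, 568 and 622 counts in HCX libraries, against 892, 834 and 799 in DMSO libraries (log2 fold change -0.54 ± 0.08 SE, adjusted p = 7.81e-05). Cacna1g, of the same channel type, fell to 0.74-fold, with 709, 799 and 797 in HCX and 973, 1192 and 947 in DMSO libraries. Cacng3, which regulates AMPA receptors, fell to 0.81-fold. The auxiliary subunit Cacnb3 was the higher member, with 2643, 2577 and 2511 in HCX and 1955, 2231 and 2152 in DMSO libraries (log2 fold change 0.29 ± 0.06 SE, adjusted p = 0.00162). Of 20 tested transmitter-gated channels 2 were higher and 3 lower, 10% and 15% beside 8.48% and 8.57% of all genes. The lower count was 6 on the deposited scale, and the higher count 1 without DMSO library 1 or 3 or HCX library 1 or 3. Htr3a, a serotonin-gated channel subunit, had 899.6, 867 and 753 in HCX and 1194, 958 and 1149 in DMSO libraries (log2 fold change -0.39 ± 0.09 SE, adjusted p = 0.00696), and P2rx4, another ATP-gated channel, fell to 0.82-fold, beside 0.32-fold for P2rx3. Of 13 tested sensory neuron genes 3 were lower and 1 higher, 23.1% and 7.69% beside 8.57% and 8.48% of all genes. The list's median was 0.06, only 4 of the 13 differences were negative, and at an unadjusted p under 0.05 there were 5 higher and 3 lower. The higher count was 3 when libraries were scaled to the same total and 2 without HCX library 2 or 3. Besides Avil and P2rx3, the neurotrophin receptor Ntrk3 had 1378, 1415 and 1366 in HCX and 1549.7, 1559 and 1629.7 in DMSO libraries, a call lost without DMSO library 1 or 3 or HCX library 1 or 3 (adjusted p up to 0.0877). The sensory and retinal ganglion factor Pou4f2 rose 1.49-fold.

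Of 49 tested axon guidance genes 5 were higher and 9 lower, 10.2% and 18.4% beside 8.48% and 8.57% of all genes, with a median of -0.04, and the 5 became 3 without HCX library 3. Unc5c, a receptor through which netrin repels axons, had 4451, 4605 and 4719 counts in HCX libraries, against 3711, 3092 and 3628 in DMSO libraries (log2 fold change 0.41 ± 0.06 SE, adjusted p = 0.000167). The related Unc5a rose 1.23-fold, with 2315, 2297 and 2386 in HCX and 1946, 1938 and 1824 in DMSO libraries, while Neo1, described above, fell. Nrp1, a semaphorin co-receptor, had 1860.2, 1939 and 1912 in HCX and 1581, 1349.7 and 1483 in DMSO libraries (log2 fold change 0.37 ± 0.06 SE, adjusted p = 0.000503). Of 31 growth cone and microtubule genes 3 were higher and 7 lower, 9.68% and 22.6% of the list, or 5 higher when libraries were scaled to the same total. Gap43, a membrane protein of growth cones, had 2588, 2700.3 and 2264 in HCX and 3552, 4395 and 3799.9 in DMSO libraries (log2 fold change -0.64 ± 0.07 SE, adjusted p = 4.88e-06). Ina, the neuronal intermediate filament internexin alpha, had 9246, 8367 and 8338 in HCX and 6838, 7108 and 6454 in DMSO libraries (log2 fold change 0.35 ± 0.05 SE, adjusted p = 7.64e-05). The microtubule destabiliser Stmn1 and the microtubule-associated Map1a fell to 0.84-fold and 0.81-fold.

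Of the secretory route, the endoplasmic reticulum and the lysosome had lower members and the Golgi had almost no calls. Of 27 tested chaperone and stress genes of the endoplasmic reticulum 9 were lower and 0 higher (1 higher at an unadjusted p under 0.05, 0 with limma-voom), with a median of -0.13. The lower share was 33.3%, beside 8.57% of all genes. Atf6, a sensor of unfolded proteins, had 8855, 9050.1 and 8812 counts in HCX and 10891, 10736 and 10476 in DMSO libraries (log2 fold change -0.26 ± 0.04 SE, adjusted p = 0.000175), and the chaperone Hyou1 and the degradation factor Edem1 fell to 0.82-fold and 0.80-fold. Of 36 Golgi structure and coat genes, which serve the compartment where the chains are made, 1 was higher and 0 lower (3 lower at an unadjusted p under 0.05 or on the deposited scale, 0 with limma-voom). It was the transcription factor Creb3l2 (0.18 ± 0.05, adjusted p = 0.02), a call lost on the deposited scale and without DMSO library 2 or 3 or HCX library 1 or 3 (adjusted p up to 0.077). All 36 Golgi intervals lay within 2-fold, and the higher share was 2.78%, beside 8.48% of all genes. Of 43 lysosome genes 8 were lower and 0 higher, 18.6% lower beside 8.57% of all genes, and 16 were lower on the deposited scale. Gusb, the beta-glucuronidase that takes glucuronic acid off the ends of glycosaminoglycans, had 1837, 1890.5 and 1922 in HCX and 2473, 2394 and 2505 in DMSO libraries (log2 fold change -0.38 ± 0.05 SE, adjusted p = 3.46e-05). Hexa, a subunit of beta-hexosaminidase, had 2854, 2941 and 2715 in HCX and 3455, 3442 and 3431 in DMSO libraries (log2 fold change -0.28 ± 0.05 SE, adjusted p = 0.00045), and Grn, which encodes progranulin, fell to 0.74-fold.

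Genes of cholesterol and fatty acid synthesis gave 3 higher and 4 lower of 31 tested, 9.68% and 12.9% beside 8.48% and 8.57% of all genes, with a median of -0.07. The lower count depended on single libraries and was 10 without DMSO library 3, 1 without DMSO library 2, 2 without DMSO library 1 or HCX library 3, and 7 on the deposited scale. Besides Acly, the mevalonate pathway kinase Pmvk had 3499, 3597 and 3978 counts in HCX and 2949.8, 3053 and 3258 in DMSO libraries (log2 fold change 0.26 ± 0.05 SE, adjusted p = 0.00298). Stard4, a sterol carrier, had 1944, 1862 and 1790.4 in HCX and 2369.8, 2460.0 and 2354 in DMSO libraries (log2 fold change -0.36 ± 0.06 SE, adjusted p = 0.000188), and Hsd17b7, a dehydrogenase of cholesterol synthesis, fell to 0.84-fold, a call lost without DMSO library 1 or 2 or HCX library 1 (adjusted p up to 0.0609).

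Acute phase, cytokine and complement genes gave 6 lower and 0 higher of 15 tested, 40% lower beside 8.57% of all genes, with a median of -0.54. Lcn2, an iron-siderophore binding acute phase protein, had 210.4, 291 and 140.0 counts in HCX and 592, 1055 and 499.9 in DMSO libraries (log2 fold change -1.72 ± 0.22 SE, adjusted p = 3.03e-05), with a wide range in both groups. C1ra, a protease of the first complement component, had 160.2, 172 and 165 in HCX and 309, 258 and 282 in DMSO libraries, and shares 59.3% of its 31-base stretches with other genes. C7, a complement component, had 56.9, 74.1 and 46 in HCX and 127, 119 and 108 in DMSO libraries (log2 fold change -1.01 ± 0.21 SE, adjusted p = 0.00239). Il6, the interleukin 6 gene, fell to 0.68-fold. Of 10 tested keratin, desmosome and cornified envelope genes 3 were lower and 1 higher, 30% and 10% beside 8.57% and 8.48% of all genes. Jup, the junctional protein plakoglobin, had 4096, 3749 and 3958 in HCX and 3208, 3507 and 2889.6 in DMSO libraries (log2 fold change 0.30 ± 0.06 SE, adjusted p = 0.00187), while corneodesmosin (Cdsn), epiplakin (Eppk1) and keratin 8 (Krt8) fell to 0.49-fold, 0.34-fold and 0.64-fold.

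**Figure D5:**
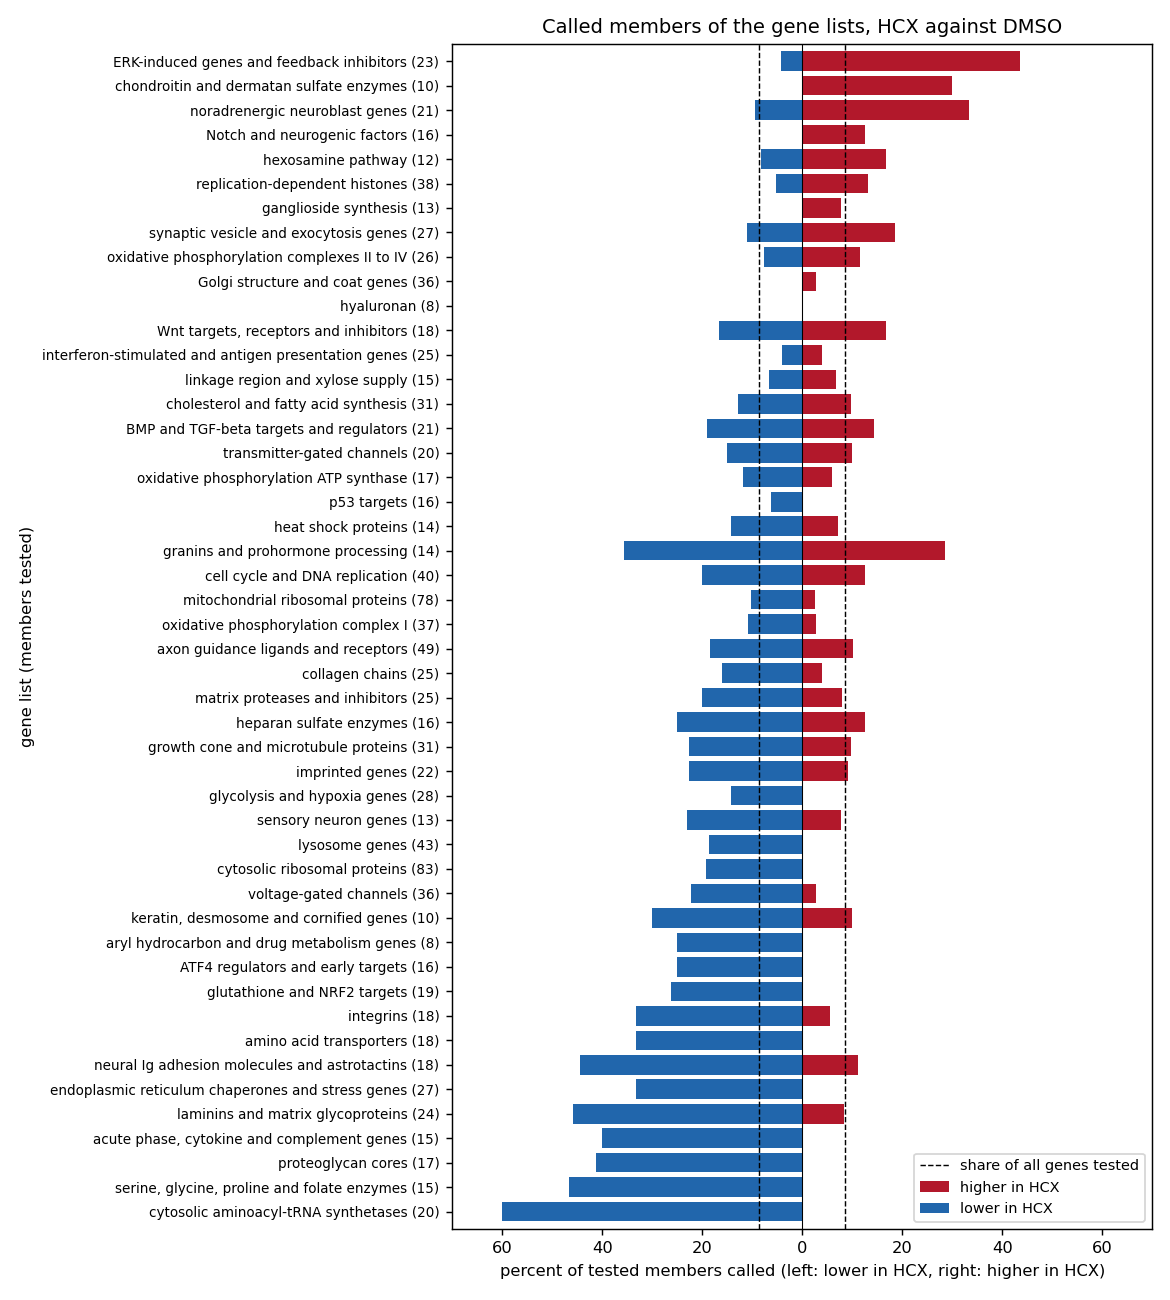
Percent of tested members of 48 gene lists that were higher in HCX (right, red) and lower in HCX (left, blue) than in DMSO, with the number of tested members after each list's name and the shares of all genes, 8.48% and 8.57%, as dashed lines. Lower members were most frequent among the aminoacyl-tRNA synthetases (12 of 20), and higher members among ERK-induced genes (10 of 23).

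The study's discussion names 8 genes, chosen on these samples and so not an independent list. Of these 7 passed the filter, and 5 were lower and 0 higher in HCX than in DMSO libraries. Besides Avil, Mmp9 and Astn2, the skeletal muscle actin Acta1 had 15.8, 26.5 and 8.69 counts in HCX and 45.1, 48.2 and 52 in DMSO libraries (log2 fold change -1.58 ± 0.34 SE, adjusted p = 0.0034). Ptprt, a receptor tyrosine phosphatase, had 86.6, 72.6 and 55.7 in HCX and 172, 168 and 145 in DMSO libraries (log2 fold change -1.18 ± 0.18 SE, adjusted p = 0.000185). Col14a1 had 61.1, 86.1 and 41 in HCX and 88.4, 90.6 and 98.5 in DMSO libraries (adjusted p = 0.077), and Abi3, an adaptor of actin assembly, was at 11.4, 9.94 and 6.65 in HCX and 9.85, 14.6 and 13.4 in DMSO libraries, with overlapping groups. The tenascin gene Tnc was under the filter.

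The 500 nM libraries stood with DMSO. Limma called 0 genes between LCX and DMSO, limma-voom also 0, and 427 had an unadjusted p under 0.05. Of the 32 genes named by level 30 were called between HCX and LCX, a contrast that shares the HCX libraries with the one described here. The 32 were chosen by their adjusted p between HCX and DMSO, so a high count was nearly fixed by that choice. In order of dose, Avil averaged 2487 ± 538 counts in DMSO, 2499.8 ± 260.0 in LCX and 554 ± 118 in HCX libraries (SD, n = 3 each). Hs3st3b1 averaged 1735 ± 128 in DMSO, 1701 ± 11.5 in LCX and 2844 ± 34.2 in HCX libraries, and Slc7a11 2764 ± 71.7 in DMSO, 2647 ± 52.7 in LCX and 1676 ± 132 in HCX libraries. For these genes the LCX values lay beside the DMSO values and the HCX values apart.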

How the data were processed

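Total RNA of Neuro2a cells was sequenced from 3 libraries each of the HCX, LCX and DMSO groups, which were taken from the sample titles. Per the labels and the study's methods, the authors aligned reads with TopHat2 and Bowtie to mm10 and quantified, filtered and normalized them in Partek Flow; versions, annotation and the strand setting are not given in the sources used here. The deposited values are a signal, normalized counts per gene that are not whole numbers and carry a factor that differs between genes, so whole reads and depth could not be recovered and no interval for counting error was given. A count model had been planned in case of raw counts; limma was used instead.

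A gene entered the tests when its value reached 10 in 3 or more of the libraries. Libraries were rescaled by median ratios to their geometric means (RLE factors), log2(value + 1) was fitted by group with limma 3.58.1 in R 4.3.3 (trend; all 9 libraries; 19.8 degrees of freedom) and p-values were adjusted by the Benjamini-Hochberg method over 13179 genes. With 3 libraries against 3, an exact permutation test of a single gene cannot give a two-sided p below 0.1, so none is printed. Gene lists were described by counts and medians; the members of lists were chosen with earlier results of these data known. Named genes were, in each band of level, up to 4 called genes without overlap with the smallest adjusted p in each direction; up to 4 called members of each list, or the 2 with the highest mean where none was called; all tested glycosaminoglycan enzymes; and genes named in the study's discussion. Exceptions are stated. Predicted, clone and spreadsheet-date names were left out of this choice (21 date names were tested). Places are from GENCODE or RefSeq for 24773 names. Alternatives covered scaling, pseudocount, filter, model, libraries, replicate block, threshold, shared sequence and leave-outs. The fit was tested on simulated data. Figures were drawn with matplotlib 3.10.9.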

Additional observations from a re-analysis of the deposited data

How the results depend on the processing

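Counts of called genes, and their balance between directions, moved with the setting. Of 218 named genes 180 were called, none of the 180 turned round in an alternative that tested it, and 44 of the 180 stayed called in every alternative that tested them. At an adjusted p of 0.01 there were 520 higher and 546 lower genes, of which 8 and 44 passed 2-fold. Tested by limma against a change of 1.2-fold, 25 were higher and 87 lower, with 3 and 29 at 2-fold. On the deposited scale, with no rescaling, 1781 genes were lower. The pseudocount of 10 left 8 higher and 45 lower genes at 2-fold, the absence of a filter gave 29 higher at 2-fold, and a filter of 10 in every library gave 49 lower at 2-fold. The cause of these changes was not tested, apart from the stricter thresholds and filters, which call or test fewer genes by construction. Leaving out single libraries gave 786 to 1001 higher, 806 to 1021 lower, 11 to 20 higher at 2-fold and 62 to 84 lower at 2-fold. With the 6 compared libraries alone there were 842 higher and 812 lower genes, and with limma-voom 1104 and 1093. No alternative was added after the data were seen. Replicate depth could not be judged, because reads are not known.

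Same-numbered HCX and DMSO libraries deviated together only weakly, with correlations of 0.067, 0.104 and 0.086 for numbers 1, 2 and 3. Differently numbered libraries were not compared in this way. The second principal component, 15.5% of the variance, placed number 2 highest and number 3 lowest in each group. For numbers 1, 2 and 3 it was -0.45, 18.1 and -9.61 in HCX, 0.15, 25.2 and -26.7 in DMSO and -3.15, 1.83 and -5.30 in LCX libraries. The main fit did not pair the libraries, and whether a number marks a batch was not tested. With the replicate number as a block there were 1056 higher and 1054 lower genes, and 19 higher and 72 lower at 2-fold; 6 of the 180 named calls were lost (Papss2, Chsy1, Atp5b, Cdkn1a, Slc2a3 and Abcb1a).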

Other observations

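Housekeeping genes with high counts were measured precisely and moved little. Of 83 tested cytosolic ribosomal protein genes 16 were lower and 0 higher in HCX than in DMSO libraries, with a median of -0.08. The lower share was 19.3%, beside 8.57% of all genes and 19.2% of genes at 10000 and above. The 16 became 30 on the deposited scale, 13 with libraries scaled to the same total, 7 without DMSO library 3 or HCX library 3, 8 without DMSO library 2 and 10 without HCX library 2. Rps13 had 9949, 10381 and 10069 counts in HCX and 11126, 12200.0 and 11260.5 in DMSO libraries (log2 fold change -0.19 ± 0.04 SE, adjusted p = 0.00625), and Rpl35 28914, 27207 and 26008 in HCX and 29638, 32763 and 31415 in DMSO libraries (log2 fold change -0.19 ± 0.05 SE, adjusted p = 0.0103). Of 78 mitochondrial ribosomal protein genes 2 were higher and 8 lower, 2.56% and 10.3% beside 8.48% and 8.57% of all genes. The 8 lower became 4 or 5 without DMSO library 2 or 3 or HCX library 2 or 3. The 2 higher became 4 without DMSO library 3 or with libraries scaled to the same total, and 1 without DMSO library 2 or HCX library 1 or 3. Complex I gave 1 higher and 4 lower of 37 (10 lower on the deposited scale, 1 without HCX library 3), complexes II to IV gave 3 higher and 2 lower of 26, and the ATP synthase 1 higher and 2 lower of 17. In either direction these were 13.5%, 19.2% and 17.6%, beside 17% of all genes. The single higher calls of complex I and the ATP synthase were lost on the deposited scale and without DMSO library 1 or HCX library 1 or 3, among others, and the 2 lower of the ATP synthase became 1 without DMSO library 2 or 3, HCX library 2 or 3 or LCX library 1 or 2. Within the cytochrome bc1 complex Uqcrh rose 1.30-fold, with 2623, 2380.4 and 2365 in HCX and 1820.2, 1901 and 1929 in DMSO libraries, and Uqcr11 rose 1.23-fold, whereas Uqcrq fell to 0.89-fold, a call lost without DMSO library 2 or HCX library 2 (adjusted p up to 0.1). Of 28 glycolysis and hypoxia genes 4 were lower and 0 higher, 14.3% lower beside 8.57% of all genes, and 7 were lower without HCX library 1. Ldha, the lactate dehydrogenase A gene, had 27155, 24841 and 24571 in HCX and 28064, 30352 and 30659 in DMSO libraries (log2 fold change -0.22 ± 0.05 SE, adjusted p = 0.00365).

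Of 40 tested cell cycle genes 5 were higher and 8 lower, 12.5% and 20% beside 8.48% and 8.57% of all genes, and the lower count was 4 or 5 without DMSO library 1, 2 or 3 or HCX library 2 or 3, the higher count 3 without DMSO library 2 or HCX library 2. Rrm2, a subunit of ribonucleotide reductase needed for DNA replication, had 5335, 5000.0 and 5307 counts in HCX and 4573, 3898 and 4389.9 in DMSO libraries (log2 fold change 0.29 ± 0.05 SE, adjusted p = 0.00131), while the mitotic genes Ccnb1 and Bub1b fell to 0.85-fold and 0.87-fold. Of 22 tested imprinted genes 2 were higher and 5 lower, 9.09% and 22.7% beside 8.48% and 8.57% of all genes. The 5 lower became 3 without DMSO library 1, HCX library 2 or LCX library 2 or 3. Mest had 24754, 22501 and 22884 in HCX and 30359, 31075 and 28078 in DMSO libraries (log2 fold change -0.35 ± 0.05 SE, adjusted p = 5.47e-05), Rtl1 fell to 0.75-fold, and Peg10 had 4687, 4803 and 5572 in HCX and 4020.3, 3900.5 and 4172 in DMSO libraries (log2 fold change 0.31 ± 0.06 SE, adjusted p = 0.00091). Of 16 Notch and neurogenic factors 2 were higher and 0 lower, 12.5% called in either direction beside 17% of all genes. The list's median was -0.08, opposite in sign to the 2 called genes. These were the receptor Notch2, with 1947, 1860.4 and 2109.8 in HCX and 1657, 1458 and 1425 in DMSO libraries (log2 fold change 0.38 ± 0.07 SE, adjusted p = 0.000608), and Rest, a repressor of neuronal genes, with 804, 834 and 923 in HCX and 657, 526 and 688 in DMSO libraries (log2 fold change 0.46 ± 0.10 SE, adjusted p = 0.00277).

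Some lists held few calls or split. Of 14 tested heat shock genes 1 was higher and 2 lower (2 higher and 1 lower without DMSO library 2 or HCX library 3). These were 7.14% and 14.3%, beside 8.48% and 8.57% of all genes. The co-chaperone Bag3 was raised 1.18-fold and its partner Hspb8 lowered to 0.84-fold. Of 12 hexosamine pathway genes 2 were higher and 1 lower (1 higher without DMSO library 3 or HCX library 2), 16.7% and 8.33% beside 8.48% and 8.57% of all genes. Gnpnat1, which acetylates glucosamine phosphate, was lowered to 0.83-fold, and Mgea5, which removes O-linked N-acetylglucosamine from proteins, was raised 1.13-fold. The lists of p53 targets (1 lower of 16), interferon-stimulated and antigen presentation genes (1 higher and 1 lower of 25), ganglioside synthesis (1 higher of 13) and drug metabolism genes (2 lower of 8) held single calls that were lost without some libraries, apart from Abcc1, a drug exporter, which fell to 0.85-fold. In either direction these lists had 6.25%, 8%, 7.69% and 25% called, beside 17% of all genes. Of 38 tested replication-dependent histone genes 5 were higher and 2 lower, 13.2% and 5.26% beside 8.48% and 8.57% of all genes. There were 2 higher without DMSO library 1 and 4 lower without HCX library 3, and near-identical copies make these values uncertain.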
